A study of Mus musculus with 14 samples.

Results

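The transcripts of 9 genes that carry the calcium signal of the mammalian egg were followed in full-grown mouse oocytes: *Itpr1*, *Itpr2*, *Stim1*, *Orai1*, *Cacna1h*, *Trpm7*, *Atp2a2*, *Atp2b1* and *Camk2g*. The genes were taken by name for their place in this pathway, with no cut on a measured value, from 20337 genes with at least 1 counted RefSeq transcript. Earlier results of these data were known when they were chosen. Where several transcripts of a gene were counted, the one with the highest mean count stands for the gene. All 9 passed the filter on low counts in every comparison.

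RNA was sequenced from oocytes that still held an intact germinal vesicle (GV), freed of cumulus cells by pipetting, from females of 4 to 6 weeks that had received 5 IU of equine chorionic gonadotropin 48 h before. *Ago2* fl/fl oocytes, with both copies of *Ago2* floxed, are the controls of the *Ago2* series (3 libraries). *Ago2* ADH oocytes (*Ago2* fl/ADH; Cre/+, 3 libraries) keep only an allele whose product binds small RNAs but cannot cut RNA, after Cre under the oocyte-specific *Zp3* promoter has removed the floxed allele. *Ago2* null oocytes (*Ago2* fl/fl; Cre/+, 2 libraries) came from the same crosses. Both *Ago2* mutants carry Cre and their *Ago2* fl/fl controls do not. Against these controls, effects of Cre and of the *Ago2* change cannot be told apart. *Dicer* KO oocytes (3 libraries) lack, in the oocyte only, the enzyme that makes microRNAs and small interfering RNAs. *Dicer* WT oocytes (3 libraries) are their controls. Each library pooled 20 oocytes of 3 mice by the series' design text, or of 3 or 4 by the methods, on a mostly C57BL6 background mixed from 3 transgenic lines. The comparisons ask how the loss of AGO2 cleavage, of AGO2 or of DICER goes along with the levels of these transcripts, and whether the losses differ.

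At fertilization, sperm phospholipase C produces inositol trisphosphate (IP3), which opens IP3 receptors in the endoplasmic reticulum (ER) and releases stored calcium in repeated waves. SERCA pumps return calcium to the store, plasma membrane pumps expel it, and entry channels replace what is lost. The rises act through calmodulin and CaMKII to end the arrest of the egg at metaphase II.

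The libraries held 29380403 to 58285057 counts on transcripts. Levels are given as CPM, the count scaled to the size of its library, after TMM normalization within the *Ago2* or within the *Dicer* series, and levels of different series are only set side by side. *Ago2* itself was at 24.04 to 25.46 CPM in *Ago2* fl/fl, 12.77 to 14.19 in *Ago2* ADH and 5.448 to 7.377 in *Ago2* null libraries, without overlap. It was also lower in *Dicer* KO, at 15.2 to 20.3 CPM beside 24.3 to 26.7 in *Dicer* WT (log2 fold change -0.56, adjusted p = 0.000545, edgeR). *Dicer1* went against its label, with 730.9 to 763.3 CPM in *Dicer* WT and 1641.7 to 1900.4 CPM in the libraries labelled *Dicer* KO, so *Dicer* KO stands here for libraries labelled so. A count over the whole transcript does not show whether a deleted exon is missing, and therefore does not check that label. *Dicer1* was also higher in *Ago2* ADH (1000 to 1039 CPM) and *Ago2* null (970 to 976) than in *Ago2* fl/fl libraries (620 to 653), so a rise was not particular to *Dicer* KO. The 12 oocyte markers (such as *Zp1* and *Zp2*) summed to 13227 CPM or more in every library, and the 3 blood markers counted to at most 0.202 CPM. The 15 granulosa and cumulus markers summed to 74.9 to 81.7 CPM in *Ago2* fl/fl, 70.1 to 74 in *Ago2* ADH, 57.8 to 64.1 in *Ago2* null, 91.9 to 101 in *Dicer* WT and 77.8 to 81.9 in *Dicer* KO libraries. *Cyp19a1* and *Nr5a2* made up most of each sum, at 30.7 to 35.9 and 33.1 to 40.9 CPM in *Ago2* fl/fl. Single markers moved both ways. In *Ago2* ADH *Cyp19a1* was at 21.1 to 25.5 CPM, while *Hsd3b1* was at 3.8 to 6.2 beside 0.86 to 1.74 in *Ago2* fl/fl. *Ptx3* was at 0 in every library of all groups but *Ago2* ADH, where it reached at most 0.0239 CPM. Alignments of reads with several places in the genome, kept apart from the counts, amounted to 0.557 to 0.597 per transcript count in *Ago2* fl/fl, 1.58 to 1.66 in *Ago2* ADH, 1.57 to 1.66 in *Ago2* null, 0.388 to 0.536 in *Dicer* WT and 0.939 to 1.19 in *Dicer* KO. The marker sum, carried mainly by *Cyp19a1* and *Nr5a2*, and this ratio of alignments moved with genotype. Their part in the results was not tested. Every *Ago2* genotype was run on a separate sequencing lane, and the effects of lane and genotype cannot be told apart.

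In every group the pump *Atp2a2* was the most abundant of the 9 per transcript length and the store sensor *Stim1* the least. Mean levels in *Ago2* fl/fl oocytes (SD, n = 3) ran from 98.1 ± 3.7 CPM per kilobase for *Atp2a2* through 44.5 ± 1.8 for *Camk2g*, 23.6 ± 2.5 for *Orai1*, 18.2 ± 0.53 for *Itpr1*, 13.2 ± 0.56 for *Atp2b1*, 9.53 ± 0.24 for *Trpm7*, 8.76 ± 0.14 for *Itpr2* and 4.66 ± 0.09 for *Cacna1h* to 0.1 ± 0.023 for *Stim1*. No neighbours in that order had overlapping libraries. In *Dicer* WT oocytes *Itpr1* (19.9 ± 1.3 CPM per kilobase, n = 3) stood before *Orai1* (16.6 ± 1.4), and *Orai1*, *Atp2b1* (16 ± 0.44) and *Trpm7* (15.3 ± 1.8) overlapped as neighbours. *Trpm7* moved up from place 6 in both controls to place 4 in *Ago2* ADH and *Ago2* null (24.3 ± 1.1 and 23.7 ± 1.2) and place 3 in *Dicer* KO (30.9 ± 1.1). *Itpr1* and *Atp2b1* overlapped as neighbours in *Ago2* ADH and in *Ago2* null. The place of *Itpr2* rests on the length used, since its transcripts of 11679 and 8331 bases had equal counts in every library, and with the shorter one its *Ago2* fl/fl level would be 12.3 ± 0.2 CPM per kilobase. Among 20241 genes with a known length, the percentiles in *Ago2* fl/fl ran from 97.1 for *Atp2a2* to 68.5 for *Cacna1h* and 35.7 for *Stim1*.

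**Figure D1:**
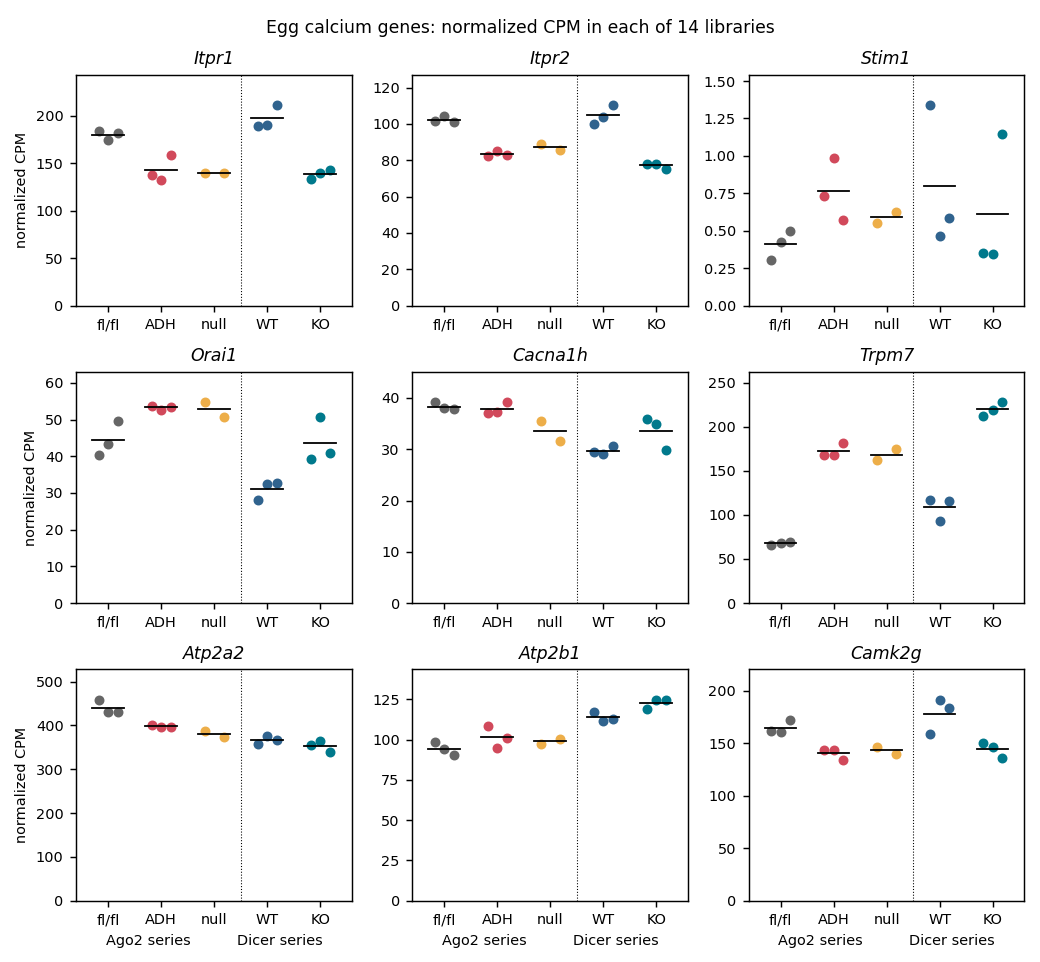
Normalized CPM (vertical axes, from 0) of the 9 calcium genes in each library, with the *Ago2* groups left and the *Dicer* groups right of the dotted line. Points are libraries and horizontal lines are group means. *Trpm7* is higher and *Itpr1*, *Itpr2* and *Camk2g* are lower in every mutant library than in every control library of the same series, whereas *Stim1* has a wide spread at 0.307 to 1.34 CPM.

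Compared with their own controls, both IP3 receptors and *Camk2g* were lower and *Trpm7* was higher in all 3 mutants. With edgeR's quasi-likelihood test and Benjamini-Hochberg adjustment over all transcripts (FDR 1%), 5 of the 9 genes were called in *Ago2* ADH oocytes, 2 higher and 3 lower. Of all 13801 genes tested, 40.9% were called in that comparison, 21% higher and 19.8% lower. In *Ago2* null oocytes 5 of 9 were called, 1 higher and 4 lower, beside 37.3% of all genes (18.6% higher and 18.7% lower). Leaving out 1 library moved that count to 3 (*Ago2* fl/fl replicate 1 or 3), 2 (*Ago2* fl/fl replicate 2 or *Ago2* null replicate 2) or left it at 5 (*Ago2* null replicate 1). *Dicer* KO oocytes again had 5 of 9 called, 2 higher and 3 lower, beside 34.5% (16.9% higher and 17.6% lower). With only 9 genes, 5 called is close to these backgrounds, so the genes are described one by one. Libraries without overlap are named in text and captions as description only, since their share among all genes was not counted. The median log2 fold change of the 9 genes was -0.01 in *Ago2* ADH, -0.20 in *Ago2* null and -0.05 in *Dicer* KO, and over all genes tested it was 0.01, 0.01 and 0.00. The comparisons of *Ago2* ADH and of *Ago2* null share their control libraries. In pooled oocytes, fewer oocytes with a transcript and less of it in each oocyte cannot be told apart. CPM is a share of the counts of a library, so a change in the other transcripts cannot be told apart from these either.

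*Itpr1* (chromosome 6, 108213083 to 108551116, plus strand, 62 exons, mm10) encodes the IP3 receptor through which the mouse egg mainly releases its stored calcium. It stood at 184, 174 and 181 CPM in *Ago2* fl/fl, 137, 132 and 158 in *Ago2* ADH and 139 and 140 in *Ago2* null libraries. *Dicer* WT libraries had 189, 190.5 and 211 CPM and *Dicer* KO libraries 133, 139.8 and 143 CPM. Every mutant library was below every control library of its series. The log2 fold change was -0.33 (SE 0.0611, adjusted p = 0.000178, edgeR) in *Ago2* ADH, -0.38 (SE 0.0583, adjusted p = 5.03e-05) in *Ago2* null and -0.50 (SE 0.0641, adjusted p = 3.19e-06) in *Dicer* KO, where the fitted level was 0.705 times that of the control. Exons of *Gm44040* and *Gm44101* on the other strand overlap it by 108 and 181 bases, and the counting did not use strand.

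*Itpr2* (chromosome 6, 146108299 to 146502258, minus strand, 56 exons) encodes another IP3 receptor and was also lower in the mutants. Its values were 101, 104 and 101 CPM in *Ago2* fl/fl, 82.5, 85.1 and 82.7 in *Ago2* ADH, 88.8 and 85.5 in *Ago2* null, 100.1, 104 and 111 in *Dicer* WT and 78.2, 78.2 and 75.2 in *Dicer* KO libraries. No mutant library reached its controls. The log2 fold change was -0.29 (SE 0.0525, adjusted p = 0.000148, edgeR) in *Ago2* ADH, -0.24 (SE 0.0626, adjusted p = 0.00397) in *Ago2* null and -0.44 (SE 0.0661, adjusted p = 2.23e-05) in *Dicer* KO. The *Ago2* null call was lost without *Ago2* fl/fl replicate 2 or 3 or *Ago2* null replicate 2, with adjusted p-values of 0.0307, 0.0125 and 0.0258.

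The remaining release channels had low levels. *Itpr3* was at 0.188 ± 0.023 CPM per kilobase in *Ago2* fl/fl and 0.117 ± 0.018 in *Dicer* WT (n = 3 each). It was not called in *Ago2* ADH, *Ago2* null or *Dicer* KO, where the log2 values were 0.56, 0.55 and 0.95 (adjusted p = 0.0358, 0.0866 and 0.0297, edgeR). The ryanodine receptors *Ryr2* and *Ryr3*, release channels known from muscle and nerve, were at 0.283 ± 0.034 and 0.453 ± 0.035 CPM per kilobase in *Ago2* fl/fl, and *Ryr1* at 0.0258 ± 0.0076. All were thus well below *Itpr1*. *Ryr3* was called higher in *Ago2* ADH, by 0.84 (SE 0.149, adjusted p = 0.000106, edgeR) on the log2 scale, and in *Ago2* null, by 0.87 (SE 0.129, adjusted p = 3.06e-05), while its 0.62 (SE 0.198, adjusted p = 0.0149) in *Dicer* KO was not called. *Ryr1* was called higher in *Dicer* KO, by 2.84 (SE 0.554, adjusted p = 0.000345), from 3 to 6 raw counts in *Dicer* WT to 23 to 26 in *Dicer* KO libraries, and not in *Ago2* ADH (1.17, adjusted p = 0.0237) or *Ago2* null (0.59, adjusted p = 0.347). The interaction of *Ago2* ADH and *Dicer* KO called none of these 4 release channels in edgeR's test, at adjusted p-values of 0.535 (*Itpr3*), 0.122 (*Ryr1*), 0.715 (*Ryr2*) and 0.761 (*Ryr3*).

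*Stim1* (chromosome 7, 102261514 to 102437319, plus strand, 12 exons), whose protein senses how full the ER store is, was the rarest member with 10 to 53 raw counts per library. It was at 0.307, 0.422 and 0.497 CPM in *Ago2* fl/fl, 0.735, 0.984 and 0.573 in *Ago2* ADH, 0.552 and 0.627 in *Ago2* null, 1.34, 0.464 and 0.584 in *Dicer* WT and 0.3498, 0.347 and 1.14 in *Dicer* KO libraries. Both *Ago2* mutants lay above their controls, and the *Dicer* groups overlapped, each with 1 library well above the others. None of the differences was called, at log2 fold changes of 0.91 (SE 0.416, adjusted p = 0.0736, edgeR), 0.52 (SE 0.5, adjusted p = 0.414) and -0.35 (SE 0.543, adjusted p = 0.633), and the last turned to 0.24 without *Dicer* WT replicate 1. Its paralog *Stim2*, a sensor of smaller store losses, was at 10.9 ± 0.65 CPM per kilobase in *Ago2* fl/fl and 10.7 ± 1 in *Dicer* WT (n = 3 each). *Stim2* was called higher in all 3 mutants, with log2 fold changes of 0.54 (SE 0.0686, adjusted p = 2.67e-06, edgeR), 0.59 (SE 0.0723, adjusted p = 4.47e-06) and 0.55 (SE 0.0787, adjusted p = 1.32e-05).

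*Orai1* (chromosome 5, 123015074 to 123030452, plus strand, 2 exons) encodes the pore that STIM proteins open in the plasma membrane. It was at 40.2, 43.2 and 49.5 CPM in *Ago2* fl/fl, 53.8, 52.7 and 53.4 in *Ago2* ADH and 54.8 and 50.8 in *Ago2* null libraries. In the *Dicer* series it was at 28.01, 32.4 and 32.7 CPM in WT and 39.3, 50.6 and 40.9 in KO libraries. All mutant libraries were above all controls of their series. The log2 fold change was 0.49 (SE 0.101, adjusted p = 0.00061, edgeR) in *Dicer* KO and 0.27 (SE 0.074, adjusted p = 0.00458) in *Ago2* ADH, while that of 0.24 (SE 0.0867, adjusted p = 0.0301) in *Ago2* null was not called. The *Ago2* ADH call was lost with transcripts summed per gene (adjusted p = 0.0104), with all 5 groups in one fit (0.0412), without *Ago2* fl/fl replicate 1 (0.0336) or 2 (0.0232) and without *Ago2* ADH replicate 1 (0.0199) or 3 (0.0147). Without *Ago2* fl/fl replicate 3, the *Ago2* null difference was called (adjusted p = 0.00618).

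*Orai3*, a pore of the same family, had a lower level in controls and changed more. It stood at 2.92 ± 0.17 CPM in *Ago2* fl/fl, 10.3 ± 1.2 in *Ago2* ADH (SD, n = 3 each) and 9.17 ± 0.3 in *Ago2* null (n = 2), and at 2.93 ± 0.68 in *Dicer* WT and 8.82 ± 0.4 in *Dicer* KO (n = 3 each). Its fitted level was 3.55, 3.11 and 3.01 times that of the controls (adjusted p = 2.76e-09, 1.84e-07 and 1.82e-06, edgeR). Per transcript length it stayed under *Orai1*, at 5.16 ± 0.61 against 28.4 ± 0.28 CPM per kilobase in *Ago2* ADH. *Orai2* had at most 12 counts in any library.

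*Trpm7* (chromosome 2, 126791558 to 126876261, minus strand, 39 exons), which encodes a channel for divalent cations fused to a kinase, showed the largest change of the 9 genes in all 3 mutants. It was at 65.8, 68.3 and 69.1 CPM in *Ago2* fl/fl, 168, 168 and 182 in *Ago2* ADH and 162 and 174 in *Ago2* null libraries. *Dicer* WT libraries held 116, 93.6 and 116 CPM and *Dicer* KO libraries 212, 219 and 228. Mutants and controls were far apart in both series. The fitted level was 2.56 times that of the control in *Ago2* ADH (log2 fold change 1.36, SE 0.0543, adjusted p = 1.37e-13, edgeR), 2.46 times in *Ago2* null (1.30, SE 0.0622, adjusted p = 3.21e-11) and 2.02 times in *Dicer* KO (1.01, SE 0.0769, adjusted p = 3.16e-09). Over the alternatives tried, the log2 fold change lay between 1.31 and 1.37, between 1.24 and 1.35 and between 0.91 and 1.06, and was called each time.

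The paralog *Trpm6*, also a channel-kinase, moved the other way. It fell from 6.08 ± 0.39 CPM in *Ago2* fl/fl to 1.73 ± 0.16 in *Ago2* ADH (n = 3 each) and 1.76 ± 0.25 in *Ago2* null (n = 2), and from 4.39 ± 1.1 in *Dicer* WT to 1.52 ± 0.34 in *Dicer* KO (n = 3 each). The log2 fold changes were -1.80, -1.80 and -1.53 (adjusted p = 4.53e-08, 8.46e-07 and 0.000114, edgeR). In *Ago2* fl/fl oocytes *Trpm6* was already the minor form, at 0.934 ± 0.061 CPM per kilobase beside 9.53 ± 0.24 for *Trpm7*.

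The 250 bases before the RefSeq start of *Trpm7* and *Orai1* are printed because these are the members called higher. They are from RefSeq on GRCm38.p6, the assembly also named mm10, with GC boxes (GGGCGG) and CCAAT boxes (CCAAT) on either strand in capitals. The *Trpm7* window is chr2:126876262-126876511 (minus strand) and the *Orai1* window chr5:123014824-123015073 (plus strand).
Trpm7: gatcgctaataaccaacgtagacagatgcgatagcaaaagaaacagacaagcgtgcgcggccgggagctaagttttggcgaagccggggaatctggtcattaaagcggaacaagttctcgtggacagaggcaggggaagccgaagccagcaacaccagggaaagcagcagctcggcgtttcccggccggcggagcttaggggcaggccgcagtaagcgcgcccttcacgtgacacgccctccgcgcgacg
Orai1: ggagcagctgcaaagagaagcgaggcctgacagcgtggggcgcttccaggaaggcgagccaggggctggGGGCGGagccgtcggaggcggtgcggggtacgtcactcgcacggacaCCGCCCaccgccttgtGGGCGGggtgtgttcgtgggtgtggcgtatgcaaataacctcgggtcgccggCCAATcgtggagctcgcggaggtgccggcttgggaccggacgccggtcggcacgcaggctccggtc
The *Trpm7* window holds neither motif and that of *Orai1* holds 3 GC boxes and 1 CCAAT box, while 32.7% of 32851 promoter windows of this length hold a GC box and 33.8% a CCAAT box. E boxes (CANNTG) number 2 in *Trpm7* and 1 in *Orai1*, and 66.2% of windows have one. Both are rich in CpG (26 and 30), as 90.4% and 94.1% of windows have fewer. So are the other member windows at hand, with 22 in *Itpr2*, called lower, and 31 in *Stim1* and 43 and 41 in *Atp2b1*, which were not called. Those windows hold GC boxes too. These letters are a description of the windows, and no binding was measured.

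*Cacna1h* (chromosome 17, 25374285 to 25436334, minus strand, 35 exons) encodes the T-type channel CaV3.2, a route of calcium entry in the mouse oocyte. It was at 39.1, 37.95 and 37.8 CPM in *Ago2* fl/fl, 37.1, 37.3 and 39.2 in *Ago2* ADH and 35.6 and 31.6 in *Ago2* null libraries. The *Dicer* series had 29.5, 29.1 and 30.6 CPM in WT and 35.9, 34.99 and 29.9 in KO libraries. *Ago2* ADH and *Dicer* KO overlapped with their controls, while both *Ago2* null libraries were below all *Ago2* fl/fl and all *Ago2* ADH libraries. No difference was called, at log2 fold changes of -0.01 (SE 0.067, adjusted p = 0.904, edgeR), -0.20 (SE 0.0812, adjusted p = 0.0497) and 0.17 (SE 0.0923, adjusted p = 0.132). Exons of the tryptase gene *Tpsg1* on the other strand overlap 148 bases, 1.8% of the transcript, where reads of the genes cannot be told apart. The T-type paralogs *Cacna1g* and *Cacna1i* were at 0.0732 ± 0.015 and 1.08 ± 0.079 CPM per kilobase in *Ago2* fl/fl beside 4.66 ± 0.09 for *Cacna1h*. *Cacna1d*, the pore subunit of an L-type channel, had fitted levels 2.3, 2.27 and 2.14 times those of the controls (adjusted p = 2.89e-11, 1.33e-09 and 6.16e-09, edgeR), at 3.82 ± 0.086 CPM per kilobase in *Ago2* fl/fl and 8.75 ± 0.35 in *Ago2* ADH.

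**Figure D2:**
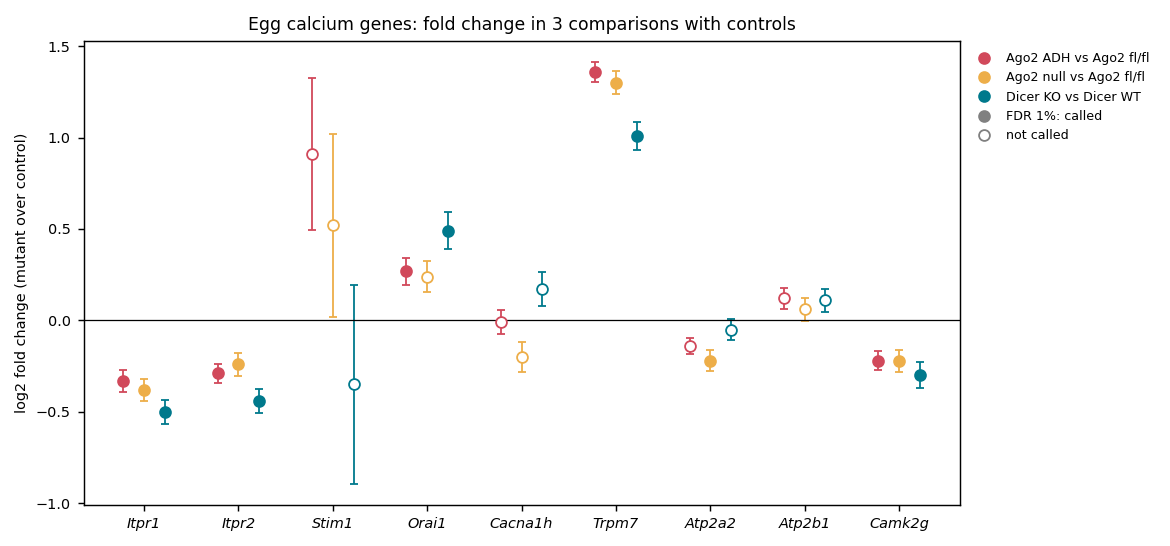
Log2 fold change (vertical axis, mutant over control) of each calcium gene in the 3 comparisons with controls, with bars of 1 standard error, filled where called at an FDR of 1% and open where not. *Trpm7* lies between 1.01 and 1.36, both IP3 receptors and *Camk2g* lie between -0.50 and -0.22, and the bars of *Stim1* are the widest.

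*Atp2a2* (chromosome 5, 122453513 to 122502225, minus strand, 20 exons) encodes SERCA2, the pump that refills the ER. Form b of its transcript, described below, stands for the gene. Exons of *Gm43361* on the other strand overlap 83 bases, 1.85%, of this form. That form was at 459, 431 and 430.4 CPM in *Ago2* fl/fl, 401, 397 and 397 in *Ago2* ADH and 388 and 375 in *Ago2* null libraries, all mutants being below all controls. The count of form a relative to form b was higher in these mutants, so the fall is given for form b only. The *Dicer* groups overlapped, at 357, 376 and 366 CPM in WT and 355, 364 and 340.3 in KO libraries. The log2 fold change of -0.22 (SE 0.0559, adjusted p = 0.0037, edgeR) in *Ago2* null was called, that of -0.14 (SE 0.0452, adjusted p = 0.0153) in *Ago2* ADH was not, and *Dicer* KO gave -0.05 (SE 0.0573, adjusted p = 0.462). The *Ago2* null call was lost without *Ago2* fl/fl replicate 1, 2 or 3 (adjusted p = 0.0159, 0.0195 and 0.0114), without *Ago2* null replicate 2 (0.021) and with transcripts summed per gene (0.0109), and the *Ago2* ADH difference was called by DESeq2 (0.00622), with no filter (0.00947) and with all 5 groups in one fit (0.00353). Its paralogs *Atp2a1* and *Atp2a3* had at most 11 and 2 counts in any library.

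Both forms of *Atp2a2*, which encode the pumps SERCA2a and SERCA2b, were counted, and their coding ends are shown because the forms differ there. Form a has 998 codons and ends at chr5:122454294-122454304, form b has 1044 and ends at chr5:122457154-122457302, both on the minus strand of mm10 and without the stop codon. Lower case marks the last 30 coding bases that they share, and capitals the coding bases particular to each form.
Atp2a2 form a: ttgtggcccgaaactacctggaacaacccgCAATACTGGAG
Atp2a2 form b: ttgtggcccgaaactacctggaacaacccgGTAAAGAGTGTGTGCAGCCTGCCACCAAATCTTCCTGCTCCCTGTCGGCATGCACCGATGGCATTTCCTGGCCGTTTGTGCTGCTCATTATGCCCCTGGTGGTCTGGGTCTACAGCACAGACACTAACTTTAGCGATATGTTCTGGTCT
A read was counted on each form that contains it, so that a read from the shared exons counts for both, and only exon stretches of 791 bases (form a) and of 963 and 330 bases (form b) separate them.

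The count of form a as a percent of that of form b was 48.3, 51.6 and 51.5% in *Ago2* fl/fl, 54.6, 57.1 and 56.1% in *Ago2* ADH and 55.8 and 53.9% in *Ago2* null libraries. All *Ago2* mutant libraries were above all controls, by 5.43 percentage points in *Ago2* ADH (exact permutation test, two-sided p = 0.1, the smallest that 3 against 3 libraries can give) and 4.36 in *Ago2* null (exact two-sided p = 0.2, the smallest for 2 against 3). *Dicer* libraries overlapped, at 60.6, 67 and 67.9% in WT and 62.8, 66.5 and 66.5% in KO, a difference of 0.0665 percentage points (exact permutation test, p = 1). The controls of the series were further apart than any mutant group and its controls, with means of 50.5 ± 1.9% and 65.2 ± 4% (n = 3 each). The difference of *Ago2* fl/fl from *Dicer* WT was -14.7 percentage points (exact permutation test, two-sided p = 0.1).

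**Figure D3:**
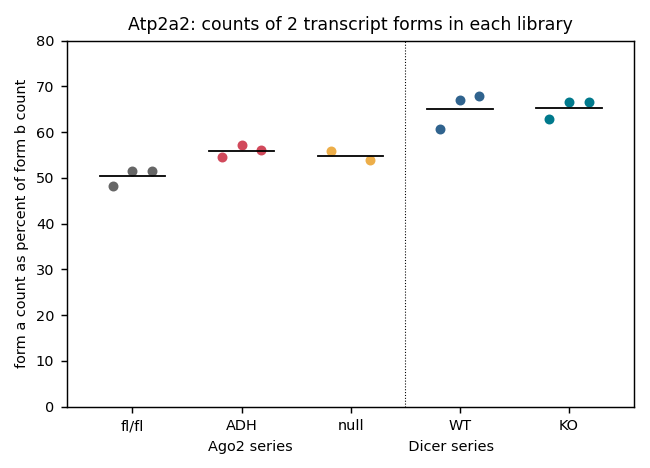
Count of *Atp2a2* form a as percent of the count of form b (vertical axis, from 0) in each library, with lines for group means. The *Ago2* mutants lie between 53.9 and 57.1%, above the *Ago2* fl/fl libraries at 48.3 to 51.6%, and the *Dicer* groups overlap between 60.6 and 67.9%.

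*Atp2b1* (chromosome 10, 98914630 to 99026143, plus strand, 21 exons) encodes PMCA1, a pump that expels calcium through the plasma membrane. Its values were 98.2, 93.9 and 90.2 CPM in *Ago2* fl/fl, 108, 95 and 101 in *Ago2* ADH, 97.3 and 101 in *Ago2* null, 117, 111 and 113 in *Dicer* WT and 119, 125 and 125 in *Dicer* KO libraries. The *Ago2* groups overlapped with their controls and the *Dicer* groups just did not. No difference was called, at log2 fold changes of 0.12 (SE 0.0596, adjusted p = 0.112, edgeR), 0.06 (SE 0.0646, adjusted p = 0.466) and 0.11 (SE 0.0617, adjusted p = 0.158). *Atp2b4*, a rarer pump of the family, fell from 11.4 ± 1.2 CPM in *Ago2* fl/fl to 5.42 ± 1.6 in *Ago2* ADH (n = 3 each) and 3.2 ± 0.18 in *Ago2* null (n = 2), and from 9.87 ± 1.3 in *Dicer* WT to 3.35 ± 2.2 in *Dicer* KO (n = 3 each). The log2 fold changes were -1.06, -1.85 and -1.54 (adjusted p = 2.65e-05, 3.17e-08 and 0.000273, edgeR).

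*Camk2g* (chromosome 14, 20734873 to 20794157, minus strand, 21 exons) encodes the CaMKII form that carries the calcium signal to the cell cycle machinery of the egg. It was at 162, 160.1 and 172 CPM in *Ago2* fl/fl, 144, 143 and 134 in *Ago2* ADH and 146 and 139.8 in *Ago2* null libraries. *Dicer* WT libraries had 159, 191 and 183 CPM and *Dicer* KO libraries 150.2, 146 and 136. Mutants were below controls without overlap in both series. The log2 fold change was -0.22 (SE 0.0517, adjusted p = 0.00127, edgeR) in *Ago2* ADH, -0.22 (SE 0.0604, adjusted p = 0.00707) in *Ago2* null and -0.30 (SE 0.072, adjusted p = 0.00194) in *Dicer* KO. The *Ago2* null call was lost without *Ago2* fl/fl replicate 1, 2 or 3 (adjusted p = 0.0101, 0.0227 and 0.0441), without *Ago2* null replicate 2 (0.0443) and with the stricter count filter (0.0122), and the *Dicer* KO call without *Dicer* WT replicate 2 (0.0139). Its paralogs *Camk2a*, *Camk2b* and *Camk2d* were at 0.0212 ± 0.0023, 0.199 ± 0.035 and 0.291 ± 0.11 CPM per kilobase in *Ago2* fl/fl, where *Camk2g* was at 44.5 ± 1.8.

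**Figure D4:**
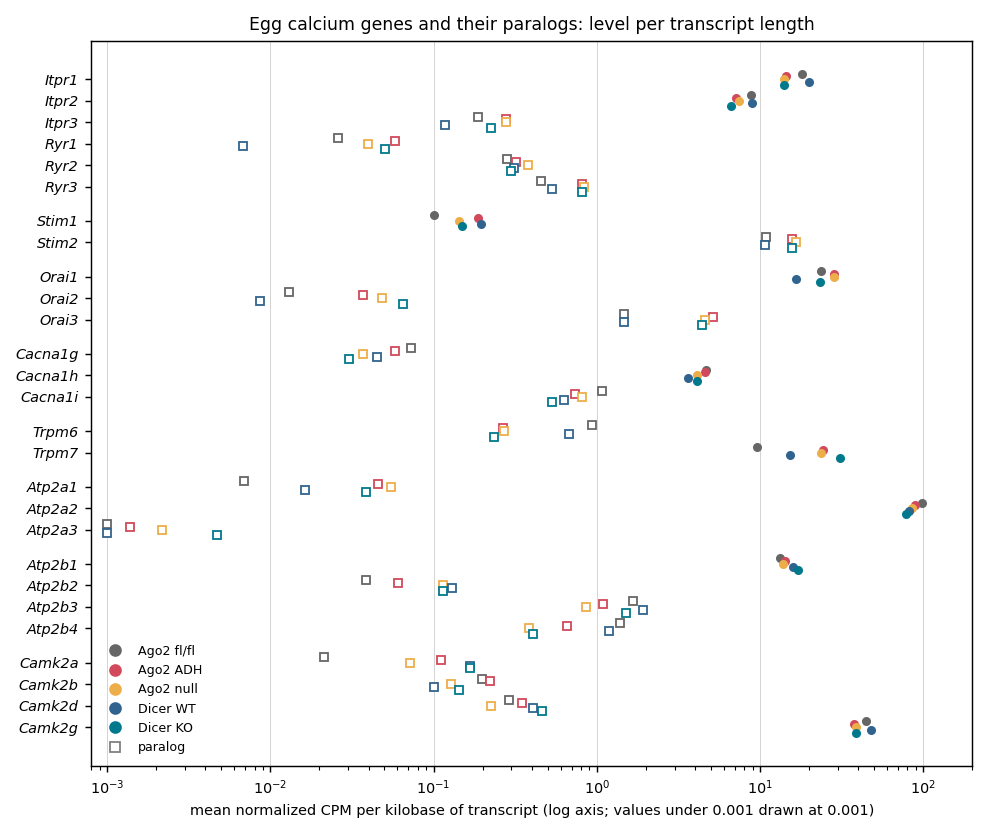
Mean normalized CPM per kilobase of transcript (horizontal log axis, values under 0.001 drawn at 0.001) of the 9 calcium genes (filled circles) and their paralogs (open squares) in the 5 groups. A member is the most abundant form of its family in every group except for *Stim1*, at 0.1 to 0.195 beside *Stim2* at 10.7 to 16.5.

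*Ago2* ADH and *Ago2* null oocytes were also compared directly, which asks whether AGO2 that binds but cannot cleave differs from no AGO2. None of the 9 genes was called by edgeR or by DESeq2, with 0 at an unadjusted p under 0.05, beside 0.12% of all 14180 genes tested (0.0705% higher and 0.0494% lower). The log2 differences of *Ago2* ADH over *Ago2* null ran from -0.06 (*Itpr2*, SE 0.0688) to 0.17 (*Cacna1h*, SE 0.0891) for all genes but the low *Stim1*, at 0.38 (SE 0.434). *Trpm7* differed by 0.04 (SE 0.0665, adjusted p = 0.905, edgeR) and *Itpr1* by 0.03 (SE 0.076, adjusted p = 0.937).

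The effect of *Ago2* ADH was set against that of *Dicer* KO as an interaction, each relative to its own controls. Here 0 of the 9 genes were called by edgeR or DESeq2, with 2 at an unadjusted p under 0.05, beside 3.74% of all 14341 genes tested (1.29% higher and 2.45% lower). Those were *Trpm7*, with a rise larger in *Ago2* ADH by 0.29 on the log2 scale (SE 0.0968, unadjusted p = 0.00654, adjusted p = 0.0651, edgeR), and *Cacna1h*, at -0.24 (SE 0.111, unadjusted p = 0.0432, adjusted p = 0.197). The *Trpm7* difference was called without *Dicer* WT replicate 2, the lowest library of its group (0.39, adjusted p = 0.00448). Differences were 0.12 (SE 0.0907) for *Itpr1*, 0.10 (SE 0.0809) for *Itpr2* and 0.03 (SE 0.091) for *Camk2g*.

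Beyond the 9 genes, 106 others of calcium release, entry, removal and response were listed by role, of which 86 to 88 could be tested against controls. In *Ago2* ADH 19 were higher and 21 lower (40 of 86), in *Ago2* null 17 higher and 18 lower (35 of 88), and in *Dicer* KO 15 higher and 20 lower (35 of 87), beside the 40.9, 37.3 and 34.5% of all genes called. Their median log2 fold changes were 0.10, 0.01 and -0.02. By DESeq2 the counts were 39, 36 and 37.

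Calcium-binding proteins of the ER hold the stored calcium or fold proteins with its help. Of 10 genes listed under this role, 2 were higher and 5 lower in *Ago2* ADH and in *Ago2* null, and 1 was higher and 7 lower in *Dicer* KO. Those higher were *Rcn1* in each mutant and *Sdf4* in *Ago2* ADH (log2 fold change 0.31, adjusted p = 0.000313, edgeR) and *Ago2* null (0.41, adjusted p = 0.000245). The list does not show where in the cell each protein lies. Of all genes tested, 21, 18.6 and 16.9% were called higher and 19.8, 18.7 and 17.6% lower in these comparisons. The chaperone *Hsp90b1* was at 222 ± 1.6 CPM in *Ago2* fl/fl, 128 ± 9.3 in *Ago2* ADH (n = 3 each) and 109 ± 17 in *Ago2* null (n = 2), and at 255 ± 6.3 in *Dicer* WT and 96.6 ± 14 in *Dicer* KO (n = 3 each). Its log2 fold changes were -0.78, -1.03 and -1.40 (adjusted p = 5.99e-10, 1.09e-08 and 7.41e-11, edgeR). *Rcn1*, reticulocalbin, went the other way, from 6.01 ± 0.28 to 25.7 ± 2.8 CPM in *Ago2* ADH and from 12.7 ± 2.1 to 44.7 ± 0.81 CPM in *Dicer* KO (n = 3 each). Its fitted levels were 4.3, 4.16 and 3.51 times those of the controls (adjusted p = 4.99e-12, 1.04e-10 and 1.23e-10, edgeR).

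Phospholipase C genes, whose products make IP3, were called in both directions. Of the 11 listed, 7, 8 and 7 were tested, of which 1, 2 and 1 were higher and 3 were lower each time, beside 40.9, 37.3 and 34.5% of all genes called in either direction. *Plcb1* had fitted levels 2.42, 1.98 and 2.14 times those of the controls (adjusted p = 2.43e-12, 9.07e-09 and 1.59e-09, edgeR), at 44 ± 2.3 CPM in *Ago2* fl/fl and 106 ± 4.5 in *Ago2* ADH. *Plcb4* fell from 3.73 ± 0.24 to 0.821 ± 0.28 CPM in *Ago2* ADH (log2 fold change -2.17, SE 0.251, adjusted p = 7.2e-07, edgeR). It was also lower in *Ago2* null (-1.56, adjusted p = 2.91e-05) and *Dicer* KO (-1.61, adjusted p = 3.03e-05, edgeR). Sperm-borne *Plcz1* had at most 1 count in any library.

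*Irag1* (also *Mrvi1*), whose protein binds the IP3 receptor, had the largest increase of the genes named by rule. It rose from 7.42 ± 0.9 to 33.9 ± 1.2 CPM in *Ago2* ADH (n = 3 each) and 33.5 ± 0.26 in *Ago2* null (n = 2), and from 7.49 ± 1.1 to 28.2 ± 1.3 CPM in *Dicer* KO (n = 3 each). The log2 fold changes were 2.20 (SE 0.0992, adjusted p = 8.89e-13, edgeR), 2.16 (SE 0.109, adjusted p = 6.78e-11) and 1.91 (SE 0.124, adjusted p = 3.22e-10).

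The remaining roles are given by their counts in *Ago2* ADH, *Ago2* null and *Dicer* KO, where 21, 18.6 and 16.9% of all genes were higher and 19.8, 18.7 and 17.6% lower. Of the membrane channels besides the members, 17, 18 and 18 were tested, with 6, 4 and 5 higher and 2, 1 and 2 lower. Of 8 genes of mitochondrial uptake, 1, 1 and 0 were higher and 3, 2 and 4 lower. Of 3 plasma membrane pumps, 2, 2 and 1 were lower and 0 higher, and of 3 calmodulin genes 1, 1 and 0 were lower. Effectors of the calcium signal had 4, 2 and 1 higher and 2, 2 and 1 lower among 18, 18 and 17 tested, and regulators of the IP3 receptor 1, 1 and 2 higher and 2, 1 and 2 lower among 6, 6 and 7. Of 4 release channels 1 was higher each time (*Ryr3*, *Ryr3* and *Ryr1*), and of the tested genes of IP3 metabolism 1 was higher each time. Of the tested genes of store-operated entry and its regulation 1, 2 and 2 were higher. These were *Orai3* each time and, in *Ago2* null and *Dicer* KO, the regulator *Saraf*, which is not a pore. Of 2 Golgi pumps 1, 1 and 0 were lower, and no tested exchanger was called by edgeR.

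**Figure D5:**
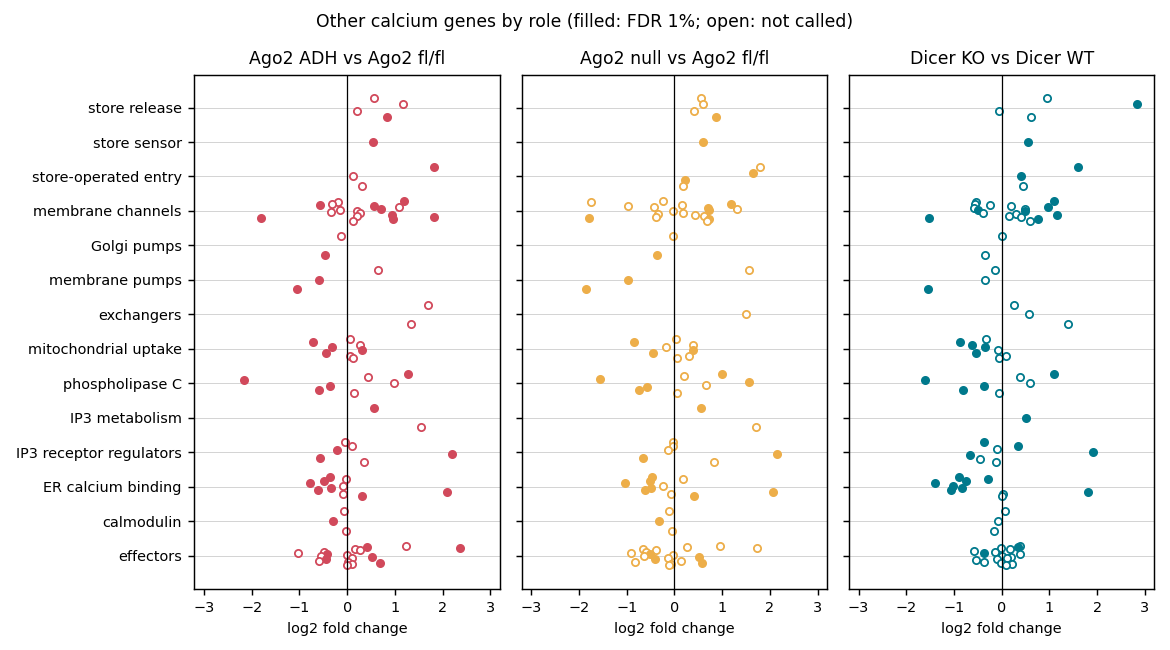
Log2 fold change (horizontal axes) of the other calcium genes tested, by role, in *Ago2* ADH and *Ago2* null against *Ago2* fl/fl and in *Dicer* KO against *Dicer* WT, each point 1 gene. Filled points were called at an FDR of 1%. Among genes listed as ER calcium-binding, 5, 5 and 7 filled points lie to the left of 0. On the right lie *Rcn1* at 2.10, 2.06 and 1.81 and, filled in the *Ago2* panels only, *Sdf4* at 0.31 and 0.41.

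Between *Ago2* ADH and *Ago2* null 0 of 89 other calcium genes were called by edgeR or DESeq2, with 6 at an unadjusted p under 0.05. The interaction of *Ago2* ADH and *Dicer* KO called 4 of 90 (7 by DESeq2). These were the ER proteins *Hspa5*, *Hsp90b1* and *Calr*, and *Mcub*, an inhibitory subunit of the mitochondrial calcium uniporter. *Calr*, calreticulin, was lower in both mutants, by 0.37 in *Ago2* ADH (adjusted p = 9.42e-06) and 0.90 in *Dicer* KO (adjusted p = 2.64e-09, edgeR) on the log2 scale.

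Likeness of pattern was described over the 14 libraries as Pearson's r of log2 CPM, centred within each series, among 10234 genes with a mean of at least 100 counts. The gene most like *Trpm7* was *Irag1* (r = 0.994), that most like *Itpr1* was *Usp32* (0.986), that most like *Itpr2* was *Sestd1* (0.979) and that most like *Camk2g* was *Dlgap4* (0.977). For the other members, r was 0.937 for *Orai1* with *Tekt2*, 0.944 for *Cacna1h* with *Drap1*, 0.942 for *Atp2a2* with *Wiz* and 0.941 for *Atp2b1* with *Tsr2*. The points share their libraries and the differences between genotypes, and *Stim1* had too few counts.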

How the data were processed

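RNA-seq of 14 libraries was used, grouped by their titles as in the report. The methods name separate collections of pooled oocytes for the replicates, and p-values measure the spread between these pools. No pair of replicates agreed within sampling noise. The deposited values are raw counts of reads per RefSeq transcript. Before deposit the authors amplified cDNA (Ovation RNA-Seq System), sequenced read pairs, mapped them to mm10 with TopHat and counted with htseq-count (intersection-strict, strand ignored), allowing as many as 100 places for a read. The submitters' processing notes name TopHat2 2.0.7 and HTSeq 0.6.1. Mapping options are given for different read lengths without saying which library had which. The 5 tally rows at the end of each table were left out.

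On these counts of 26495 transcripts, edgeR 4.0.16 in R 4.3.3 (filterByExpr with minimum count 10 and minimum total count 15, TMM, quasi-likelihood test, Benjamini-Hochberg adjustment over all transcripts, FDR 1%) was fitted to the libraries of each comparison. A standard error is the absolute log2 fold change over the root of F. In a library, 3 counts are 0.05147 to 0.1021 CPM. Amplified reads are not independent molecules, so this covers counting error only. Symbols are from RefSeq (26081 transcripts) or GENCODE M21 (113), lengths and coordinates from GENCODE M21 (GRCm38). Python 3.11.15, pandas 2.3.3 and scipy 1.17.1 gave the other values. The fit was tested on simulated data. The members, gene lists and tests were chosen with earlier results of these data known. Named from the other calcium genes are the 4 largest increases and the 4 largest decreases among genes called and averaging 100 or more normalized counts, in each comparison with controls, all genes called in the other comparisons, and by level the paralogs of members and *Plcz1*. Fold changes of *Stim2*, *Itpr3*, *Ryr1*, *Ryr3* and *Sdf4*, and of the rule's genes in comparisons where it did not name them, were chosen after their values were seen. The naming of *Saraf* was too. Alternatives were DESeq2 1.42.0, RLE scaling, no filter, a filter asking for 10 counts in each library, FDR 5%, 1 transcript or summed transcripts per gene, all 5 groups in one fit, each library left out, and the replicate number as a block. Leaving out libraries for the *Atp2a2* forms was added after seeing the data.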

Additional observations from a re-analysis of the deposited data

Results flagged for a closer look

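Effects of *Ago2* ADH and of *Dicer* KO differed for 4 of the other calcium genes by the test of the interaction (edgeR, FDR 1%). *Hspa5*, the ER chaperone BiP, had a difference of 0.88 (SE 0.107, adjusted p = 8.55e-06) on the log2 scale. It was at 114 ± 6.8 CPM in *Ago2* fl/fl, 107 ± 5.6 in *Ago2* ADH, 120 ± 4.2 in *Dicer* WT and 58.9 ± 7.8 in *Dicer* KO (n = 3 each). *Mcub* differed by 0.84 (SE 0.16, adjusted p = 0.00159), with 12.6 ± 1.7, 15.1 ± 1.7, 41.5 ± 2.2 and 27 ± 3.8 CPM in the same order (n = 3 each). *Hsp90b1* differed by 0.56 (SE 0.104, adjusted p = 0.0012) and *Calr* by 0.48 (SE 0.0853, adjusted p = 0.000903), both called lower in each mutant and further down in *Dicer* KO. All 4 differences were called under each alternative run. The series have different controls and sequencing lanes, and their part in these differences was not tested.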

How the results depend on the processing

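The 9 genes kept direction and call in 124 of 135 alternative results for *Ago2* ADH, 106 of 126 for *Ago2* null, 133 of 135 for *Dicer* KO, 118 of 126 for *Ago2* ADH over *Ago2* null and 186 of 189 for the interaction. Without 1 library, the 5 members called in *Ago2* null became 2 to 5 (a lone *Ago2* null library was taken to vary like the rest), the 0 called in the interaction 0 to 1, the other calcium genes called there 4 to 7, and those called between *Ago2* ADH and *Ago2* null 0 to 1. The 4 other calcium genes of the interaction became 7 with DESeq2, or without *Dicer* KO replicate 3, and 10 at an FDR of 5%. Reversed values were all uncalled. Leaving out 1 library at a time gave -0.04 to 0.00 for *Cacna1h* in *Ago2* ADH and -1.18 to 0.24 for *Stim1* in *Dicer* KO. For *Ago2* ADH over *Ago2* null it gave -0.05 to 0.08 for *Itpr1*, -0.04 to 0.08 for *Orai1*, -0.01 to 0.09 for *Trpm7*, -0.01 to 0.08 for *Atp2b1* and -0.06 to 0.01 for *Camk2g* (0.00 without *Ago2* ADH replicate 3). The interaction of *Camk2g* lay between -0.02 and 0.10. The *Dicer* difference of the *Atp2a2* forms lay between -2.23 and 1.43 percentage points (-0.553 and -0.548 without *Dicer* KO replicate 2 or 3), and that of *Ago2* ADH between 4.33 and 6.11. The cause was not tested.

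Samples with the same replicate number deviated from their groups with correlations of -0.111 to 0.0569, so the numbers were not taken as pairs. With the replicate block, 3 members were called in *Ago2* null: *Itpr2* (adjusted p = 0.0257), *Atp2a2* (0.0236) and *Camk2g* (0.0888) lost the call and *Orai1* (0.33, 0.00974, edgeR) gained it. The block called 2 other calcium genes between *Ago2* ADH and *Ago2* null, and there *Itpr1* turned to -0.05 and *Camk2g* to 0.00. Depth limits *Stim1* most, at 10 to 53 counts.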
